A study of Mus musculus with 24 samples.

Results

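The hedgehog co-receptors and signal transducers described here are 7 genes, chosen by name: Scube3, Cdon, Boc, Gas1, Smo, Sufu and Kif7. All 7 were found, each under 1 identifier, among 25844 genes counted by poly-A RNA sequencing in cultured mouse forelimb buds, and all 7 passed the filter on low counts in every comparison. The buds came from CD1 embryos at gestation day 13 and were cultured for 3 or 24 h. The culture held the solvent DMSO alone (the controls) or BPDP (tert-butylphenyl diphenyl phosphate, a flame retardant and plasticizer of the organophosphate ester class) at 1 or 10 µM. This gives 6 groups of 4 libraries, 24 in all, from whole limb buds that hold many cell types. In such bulk samples, fewer cells of a type and less RNA per cell cannot be told apart.

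Hedgehog proteins are secreted, lipid-modified ligands that pattern the limb bud (Sonic hedgehog) and pace cartilage growth (Indian hedgehog). Scube proteins help to free the ligand from the cell that makes it, and Cdon, Boc and Gas1 on the receiving cell bind it together with the receptor Ptch1. Binding relieves Smo from inhibition by Ptch1, and Smo then acts through Kif7 and Sufu in the primary cilium to turn Gli proteins from repressors into activators of genes such as Gli1, Ptch1 and Hhip. In several embryonic tissues Cdon, Boc and Gas1 are themselves known as genes whose transcripts are held down by active hedgehog signalling, in contrast to Gli1, Ptch1 and Hhip.

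After 24 h, the transcripts of Cdon, Scube3 and Gas1 were higher with 10 µM BPDP than in the control, by 1.56, 1.51 and 1.37 times. In that comparison 6.21% of all genes were called, 2.77% as higher. The Gas1 call was lost in 6 of 8 fits without 1 library. Smo, the transducer at the centre of the pathway, differed by a factor of 0.972 with a 95% interval of 0.858 to 1.10. Between 3 and 24 h, Boc rose by 0.38 on the log2 scale in the control, by 0.45 with 1 µM and by 0.55 with 10 µM. Here the control changes come from a fit of 8 libraries, and the others from 1 fit of all 24. The 10 µM effect on Boc differed between the times by 0.17 (95% interval -0.08 to 0.43). The 1 µM effect on Boc differed by 0.08 (-0.17 to 0.33), and neither difference passed. The Boc call in the control was lost in 6 of 8 fits without 1 library. Sufu fell over that time with 10 µM (-0.34). Its values in the control (-0.22) and with 1 µM (-0.18) had the same sign but did not pass the main test. Cdon, Gas1 and Scube3 also rose over time with 10 µM, where 28.1% of all genes were called. At 3 h none of the 7 genes passed the test at either dose, where 0% of all genes passed with 1 µM and 0.00644% with 10 µM. The plot of CPM (read counts scaled to library size) by library shows every value behind these statements.

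**Figure D1:**
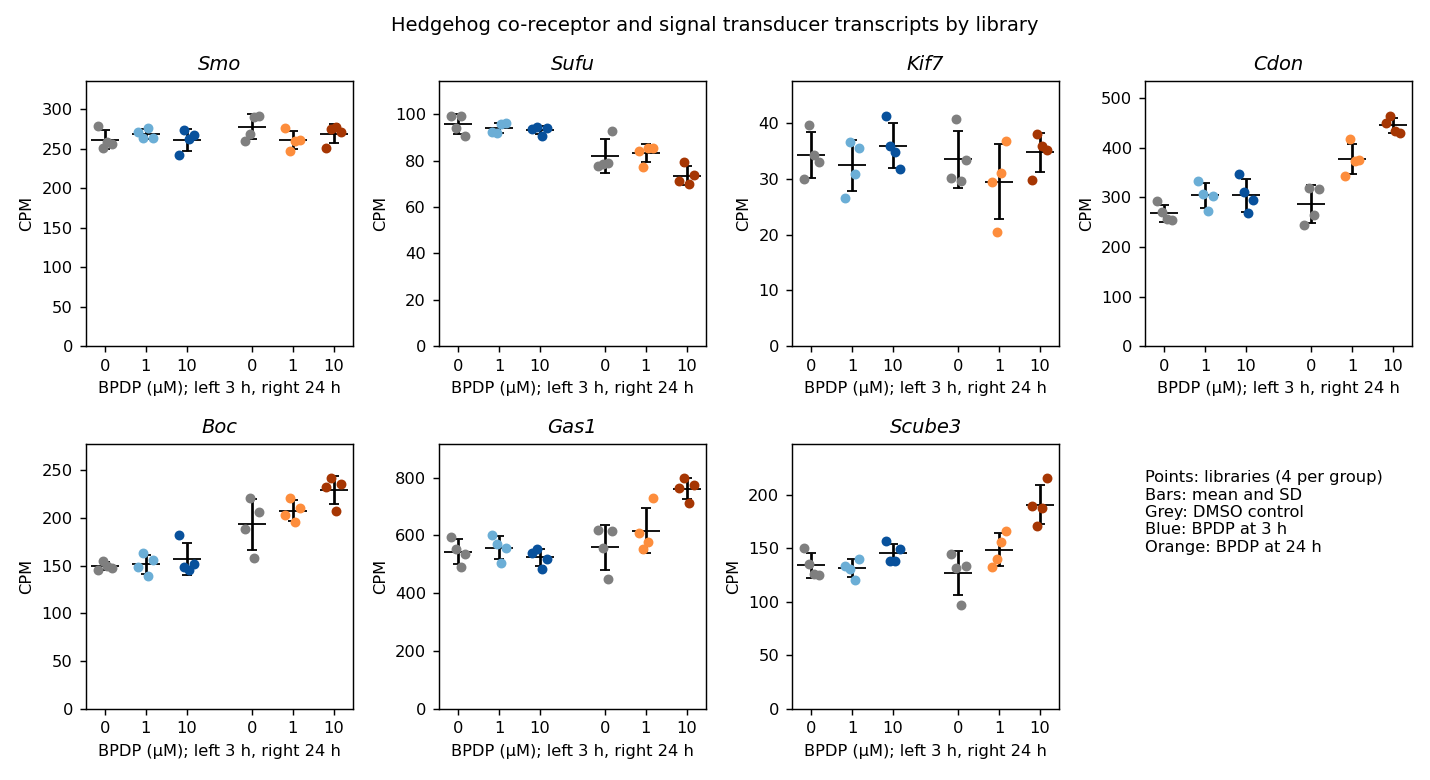
Read counts scaled to library size (CPM, y axes from 0) of the 7 genes in 24 libraries, by BPDP dose (x axes, µM) at 3 h (left in each panel) and 24 h (right). Each point is a library, and bars give the mean and SD of 4 libraries; with 10 µM at 24 h, all 4 libraries lie above all 4 controls of that time for Cdon, Gas1 and Scube3, while Smo stays between 242 and 292 CPM in all 24.

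Total counts were 14165947 to 20823058 per library. The forelimb gene Tbx5 was at 189 to 305 CPM in all libraries, and the hindlimb genes Tbx4 and Pitx1 summed to 18.4 to 31.3 CPM. Xist was under 5 CPM in 4 libraries (3 h control replicates 1 and 2, and replicate 3 of both doses at 24 h). The transcript Yam1 took 4.46% of the counts in 3 h control replicate 4 and 5.36% in replicate 3 of 1 µM at 3 h, against at most 0.217% elsewhere. No label states that the replicates of a group are different litters or cultures. The p-values therefore rest only on how these 24 samples scatter, which may be technical.

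The promoters of the genes whose levels moved are shown for reference, since Gli proteins act through short DNA sites. Windows of 250 bases before the annotated start were taken from RefSeq (build GRCm38.p6), where 6 of the 7 genes had an entry and Boc had none. The Cdon start of that table lies 30948 bases inside the deposited gene, so its window is not shown. Printed here are Gas1 (chr13:60177536-60177785, minus strand), part of the Scube3 window (chr17:28142059-28142140, plus strand), and Sufu (chr19:46396646-46396895, plus strand). The Scube3 part is the stretch before the first annotated Scube3 exon, and exons of other genes were not checked. Each sequence runs 5′ to 3′ and ends upstream of the gene, with capitals reserved for a Gli motif.
Gas1: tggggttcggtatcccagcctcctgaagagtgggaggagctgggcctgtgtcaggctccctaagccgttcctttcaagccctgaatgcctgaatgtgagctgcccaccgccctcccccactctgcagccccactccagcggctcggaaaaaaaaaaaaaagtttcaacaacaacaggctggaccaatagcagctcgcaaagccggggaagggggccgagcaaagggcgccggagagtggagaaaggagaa
Scube3: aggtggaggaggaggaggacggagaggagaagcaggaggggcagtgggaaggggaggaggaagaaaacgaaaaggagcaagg
Sufu: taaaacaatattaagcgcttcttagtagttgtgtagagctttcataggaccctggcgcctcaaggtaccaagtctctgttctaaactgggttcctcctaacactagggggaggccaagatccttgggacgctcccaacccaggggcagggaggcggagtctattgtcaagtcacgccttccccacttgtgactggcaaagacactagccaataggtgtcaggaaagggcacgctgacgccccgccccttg
No capital appears because neither the Gli consensus GACCACCCA nor the core ACCACCC, which lies within it, was found on either strand in any of the 6 windows. Among all 32851 promoter windows of this length, 0.225% held GACCACCCA and 3.92% held ACCACCC, so that a window without them is the usual case and says only that these letters are not there.

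Per length of transcript, Gas1 was the most abundant of the 7 genes, with a median of 199 FPKM (fragments scaled to gene length and library total) over the 24 libraries. Smo followed at 70.7 FPKM, Cdon at 42.4, Boc at 39.1, Scube3 at 21.1, Sufu at 19.5 and Kif7 at 7.33. The ranges of Cdon (31.3 to 62.2 FPKM) and Boc (29.2 to 54.1) overlapped, as did those of Scube3 (13.8 to 31.6) and Sufu (14.8 to 22.9). The top of the Scube3 range also reached into the bottom of the Boc and Cdon ranges. Those of Gas1 (145 to 269), Smo (62.1 to 76.1) and Kif7 (4.37 to 9.96) met those of no other gene of the 7, apart from the top of the Cdon range, which reached the lowest Smo library. Levels below are CPM, which compare 1 gene between libraries, except in the comparison of Cdon with Boc and its figure, which use FPKM.

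Scube3 (ENSMUSG00000038677, chr17:28142316-28174852, plus strand, mm10) encodes a secreted protein with epidermal growth factor repeats from the family that releases hedgehog ligands. In the 24 h controls it was at 145, 132, 97.0 and 133 CPM in replicates 1 to 4. With 10 µM at 24 h it was at 189, 170.4, 188 and 215 CPM. All 4 treated libraries lay above all 4 controls, and control replicate 3 stood lowest of all 24 libraries. The difference was 0.60 on the log2 scale (SE 0.118, adjusted p = 0.0102), and the call held in 8 of 8 fits that left out 1 library, with an adjusted p up to 0.0440.

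With 1 µM at 24 h, Scube3 was at 132, 140.2, 156 and 166 CPM, between the other groups and overlapping the controls. Its difference from the control was 0.23 (95% interval -0.03 to 0.50, adjusted p = 0.894), which did not pass. Between the doses at 24 h, Scube3 was higher with 10 µM than with 1 µM by 0.36 (SE 0.0987, adjusted p = 0.0405), the only call among the 7 genes, where 3.35% of 16691 genes were called. The groups did not overlap for Scube3 and Cdon, against 10.8% of all genes. The Scube3 call between doses was lost in 6 of 8 fits without 1 library, where the adjusted p reached 0.159: those without replicate 1, 2 or 3 of 1 µM and those without replicate 1, 3 or 4 of 10 µM. At 3 h, Scube3 lay between 120.4 and 156 CPM in all 12 libraries.

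Cdon (ENSMUSG00000038119, chr9:35421128-35507652, plus strand) encodes a cell-surface protein of the immunoglobulin superfamily that binds hedgehog ligands. In the 24 h controls it was at 244, 320.0, 264 and 318 CPM, with replicates 2 and 4 above replicates 1 and 3. With 1 µM at 24 h it was at 344, 417, 373 and 377 CPM, and with 10 µM at 451, 465, 434 and 431 CPM. Cdon therefore stood in 3 separate ranges at 24 h, lowest in the control and highest with 10 µM.

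Against the control, Cdon was higher with 10 µM by 0.64 (SE 0.105, adjusted p = 0.00319). This call held in 8 of 8 fits without 1 library, with an adjusted p up to 0.0153. With 1 µM the difference was 0.40 (95% interval 0.15 to 0.65), but its adjusted p over all genes was 0.508. No gene of the 7 was called with 1 µM at 24 h, where 0.0770% of 15578 genes were. By unadjusted p under 0.05 Cdon alone would pass there, against 5.89% of genes, and with DESeq2 0 of the 7 were called, against 0.326% of genes. In 1 fit of all 24 libraries Cdon passed (0.40, adjusted p = 0.0451). Cdon was also the only gene of the 7 whose libraries did not overlap between 1 µM and control, against 4.17% of all genes. These comparisons use the same 4 controls, so the 1 and 10 µM values are not independent. Between the doses Cdon differed by 0.24 (95% interval 0.05 to 0.43, adjusted p = 0.173).

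At 3 h Cdon was at 292, 270.2, 257 and 255 CPM in the controls. It was at 333, 307, 273 and 303 CPM with 1 µM and at 347, 310.1, 268 and 295 CPM with 10 µM. Both treated groups overlapped the controls. The differences were 0.18 with 1 µM (95% interval 0.01 to 0.34, adjusted p = 0.947) and 0.19 with 10 µM (-0.002 to 0.38, adjusted p = 0.326). Over time Cdon differed by 0.10 in the control (adjusted p = 0.625), and it rose by 0.31 with 1 µM (adjusted p = 0.0169) and by 0.55 with 10 µM (adjusted p = 5.15e-05). The rise with 1 µM did not pass without replicate 3 of 1 µM at 3 h or without replicate 2 of 1 µM at 24 h (adjusted p up to 0.0795).

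Boc (ENSMUSG00000022687, chr16:44485045-44558897, minus strand) is the closest relative of Cdon and binds the same ligands. In the 3 h controls it was at 146, 155, 149.5 and 148 CPM. In the 24 h controls it was at 188, 220.5, 158 and 206 CPM. Every 24 h control lay above every 3 h control, replicate 3 by the smallest margin. Boc rose by 0.38 (SE 0.103, adjusted p = 0.0347) and was the only one of the 7 genes called over time in the control, where 9.55% of 15640 genes were called and groups did not overlap for 16.7%. That call was lost in 6 of 8 fits without 1 library (each 3 h control, and 24 h control replicates 2 and 4), with an adjusted p up to 0.104, and in both pairs of replicates taken alone (0.45 and 0.30). Cell type markers moved with Boc over this time. Higher at 24 h were 7 of 8 for cartilage, 6 of 7 for muscle, 5 of 6 for macrophages, 4 of 5 for perichondrium and osteoblasts and 2 of 6 for epidermis. Lower were 6 of 6 for cycling cells, 3 of 7 for limb mesenchyme, 2 of 5 each for erythroid and Schwann cells and 1 of 6 for endothelium. Their part in the Boc result was not tested.

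With BPDP at 24 h, Boc was at 203, 221, 196 and 211 CPM with 1 µM and at 233, 242, 208 and 236 CPM with 10 µM. Both groups overlapped the 24 h controls. The difference from control was 0.25 with 10 µM (95% interval 0.03 to 0.48, adjusted p = 0.188). It was 0.26 and passed in a fit blocked by replicate number (adjusted p = 0.0456). With 1 µM it was 0.10 (-0.13 to 0.34). Boc rose from 3 to 24 h by 0.45 with 1 µM (adjusted p = 0.000363) and by 0.55 with 10 µM (adjusted p = 2.09e-05).

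The balance of the relatives Cdon and Boc, per length, separated the 24 h controls from every other group, though by a small gap. Cdon was below Boc in 4 of 4 24 h controls, with a ratio of FPKM of 0.888 ± 0.0928 (SD, n = 4) and a range of 0.774 to 0.994. It was above Boc in all 20 libraries of the other 5 groups. The mean ratio was 1.07 in the 3 h controls, 1.20 and 1.16 with 1 and 10 µM at 3 h, and 1.08 and 1.16 with 1 and 10 µM at 24 h. The treated library nearest to equality at 24 h was replicate 1 of 1 µM, with a ratio of 1.009 against 0.994 in the highest control. Where equality falls depends on the deposited gene lengths, 7464 bases for Cdon and 4452 for Boc. How many other gene pairs separate the groups in this way was not counted. The ratio was computed after the levels had been seen and is given as a description, with no test.

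**Figure D2:**
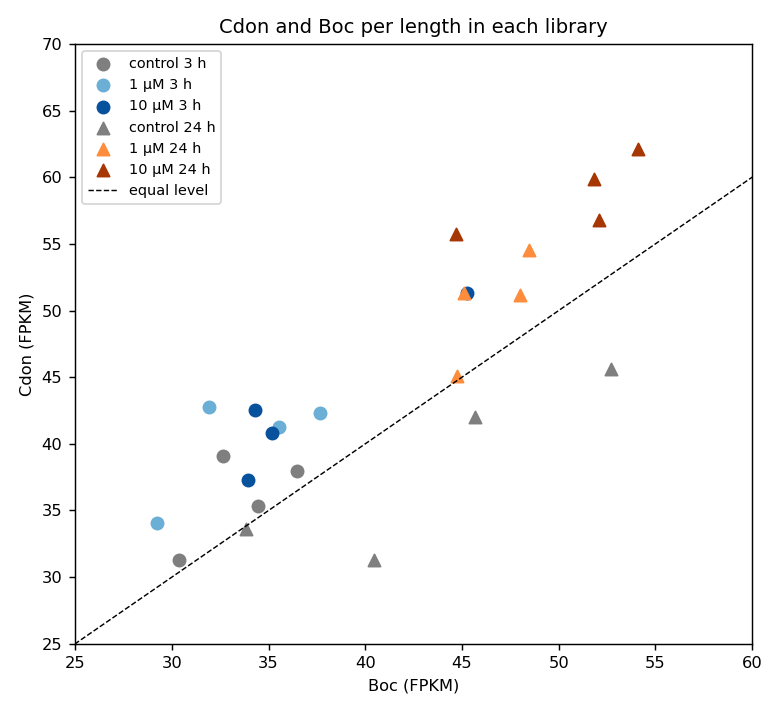
Cdon (y axis, FPKM) against Boc (x axis, FPKM) in each of 24 libraries, with circles for 3 h, triangles for 24 h and colours for dose. The axes do not start at 0, and the dashed line marks equal levels: the 4 grey triangles of the 24 h control lie below it and the other 20 libraries above it.

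Gas1 (ENSMUSG00000052957, chr13:60174405-60177365, minus strand) encodes a lipid-anchored surface protein that binds Sonic hedgehog. In the 24 h controls it was at 617, 556, 451 and 614 CPM. With 1 µM at 24 h it was at 609.7, 552, 578 and 728 CPM, and with 10 µM at 763, 798, 712 and 774 CPM. The 4 libraries with 10 µM lay above all controls, whereas those with 1 µM overlapped both other groups. Gas1 was higher with 10 µM than in the control by 0.45 (SE 0.117, adjusted p = 0.0384). The call was lost in 6 of 8 fits without 1 library (24 h control replicate 3 or 4, or any library with 10 µM), where the adjusted p reached 0.109.

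Gas1 differed by 0.14 between 1 µM and control at 24 h (95% interval -0.15 to 0.44). Between the doses it differed by 0.30 (95% interval 0.10 to 0.51, adjusted p = 0.0913), and by 0.31 in a fit blocked by replicate number, which passed (adjusted p = 0.0299). At 3 h Gas1 lay between 484 and 600.1 CPM in all 12 libraries. Over time it rose with 10 µM by 0.54 (adjusted p = 0.000136), where the groups did not overlap, as for 30.1% of all genes. In the control it differed over time by 0.05 (95% interval -0.22 to 0.32).

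Smo (ENSMUSG00000001761, chr6:29735694-29761365, plus strand), the membrane protein that passes the signal into the cell, varied least. Its 24 libraries lay between 242 and 292 CPM, a ratio of highest to lowest of 1.21, and only 0.156% of the 16691 tested genes had a smaller ratio. The group means ran from 261 ± 11.9 CPM with 1 µM at 24 h to 278 ± 15.8 CPM in the 24 h control (SD, n = 4), and every neighbouring pair of groups in that order overlapped. No comparison called Smo. The widest interval against a control, for 1 µM at 24 h, was -0.29 to 0.11 on the log2 scale. A pseudogene inside Smo had at most 25 counts, against at least 3586 for Smo.

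Sufu (ENSMUSG00000025231, chr19:46396896-46488804, plus strand) binds Gli proteins and restrains them. In the 3 h controls it was at 99.2, 93.9, 99.5 and 90.8 CPM, and with 10 µM at 3 h at 93.7, 94.7, 90.8 and 94.2 CPM. With 10 µM at 24 h it was at 71.3, 79.3, 69.9 and 74.1 CPM. Sufu fell over time with 10 µM by 0.34 (adjusted p = 0.000255), with every 24 h library below every 3 h library. The groups did not overlap for 30.1% of all genes in that comparison. The 24 h controls were at 77.9, 78.4, 79.0 and 93.0 CPM, with replicate 4 inside the range of the 3 h controls and the other 3 below it. The control difference over time was -0.22 (95% interval -0.41 to -0.03, adjusted p = 0.138), and it passed in 1 fit of all 24 libraries (adjusted p = 0.0199).

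With 1 µM, Sufu at 24 h was at 84.4, 77.5, 85.6 and 85.5 CPM. All lay below the 91.9 to 96.4 CPM of 1 µM at 3 h, and the groups did not overlap for 23.6% of all genes. The Sufu difference over time with 1 µM was -0.18 (adjusted p = 0.0597), and it passed with DESeq2 (adjusted p = 0.0474). Against the control at 24 h, Sufu differed by -0.15 with 10 µM (95% interval -0.34 to 0.04, adjusted p = 0.358) and by 0.02 with 1 µM (-0.17 to 0.22). Markers of cycling cells moved with Sufu over time. In the control and with 10 µM, 6 of 6 fell, where 4.10% and 14.1% of all genes fell. Their summed level was 825 to 922 CPM in the 3 h controls and 492 to 545 CPM in the 24 h controls. With 10 µM at 24 h the summed level of these markers was 247 to 285 CPM. Their part in the Sufu values was not tested.

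Kif7 (ENSMUSG00000050382, chr7:79698098-79715720, minus strand) encodes a kinesin of the cilium tip through which Gli proteins are regulated. It was the least abundant, at 20.5 to 41.3 CPM, with at least 298 counts in a library. No comparison called it, and its intervals were the widest of the 7 genes. Against the 24 h control it differed by 0.06 with 10 µM (95% interval -0.21 to 0.33) and by -0.18 with 1 µM (-0.54 to 0.18). Its group means ran from 29.5 ± 6.75 CPM with 1 µM at 24 h to 35.9 ± 4.01 CPM with 10 µM at 3 h (SD, n = 4), and all neighbouring groups overlapped. The end of Kif7 overlaps that of Ticrr on the other strand by 37 bases, and 9330171B17Rik lies within it with at most 13 counts. The labels do not state strand, so reads of these genes cannot be separated there.

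As a group, 3 of the 7 genes were called with 10 µM at 24 h, all higher, where 6.21% of 15508 genes were called (2.77% higher). These 3 were also the genes whose libraries did not overlap the controls from above, against 6.89% of all genes. The median log2 difference of the 7 was 0.25, against -0.02 for all genes. These counts come from a fit without a term for replicate number, although the numbers paired the 24 h libraries. In the edgeR fit blocked by replicate number, Boc was called as well (adjusted p = 0.0456), where 1645 of 15508 genes were called. At 3 h, 0 of 7 were called by edgeR with either dose, where 0% (1 µM) and 0.00644% (10 µM) of genes were. DESeq2 called 0 of the 7 as well, against 0% of genes with 1 µM and 3.87% with 10 µM. By unadjusted p under 0.05 only Cdon passed, with 1 µM, where 5.19% of genes did, and 0 of 7 with 10 µM, where 15.5% did. The separate values of the 4 comparisons are drawn with their intervals.

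**Figure D3:**
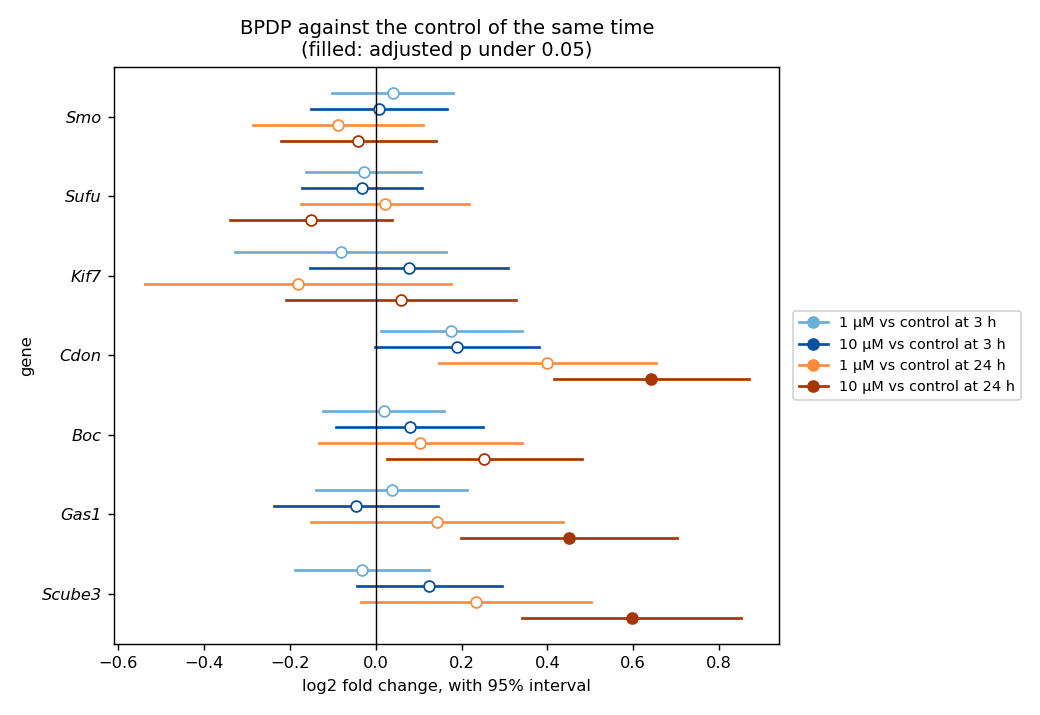
Log2 fold change (x axis) of each of the 7 genes (y axis) in the 4 comparisons of BPDP with the control of the same time, with 95% intervals and filled points where the adjusted p was under 0.05. The 3 filled points belong to Cdon, Gas1 and Scube3 with 10 µM at 24 h; comparisons at the same time share their controls.

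The authors' deposited table gives log2 fold changes of 0.62 for Cdon (adjusted p 4.98e-08), 0.56 for Scube3 and 0.43 for Gas1 for 10 µM at 24 h. For Boc the authors' deposited table gives 0.24 with an adjusted p of 0.143 in that comparison, and 0.36 with an adjusted p of 0.0112 over time in the control.

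Over 24 h with 10 µM, 5 of the 7 genes were called, where 28.1% of 16691 genes were: Cdon, Boc, Gas1 and Scube3 (0.39, adjusted p = 0.0034) rose and Sufu fell. None of these 5 overlapped between the times, as for 30.1% of all genes. With 1 µM, Cdon and Boc were called over time, where 19.9% of genes were. The test of whether the 10 µM effect itself was larger at 24 h than at 3 h gave 0.50 for Gas1 (adjusted p = 0.0543), 0.47 for Scube3 (adjusted p = 0.0681) and 0.45 for Cdon (adjusted p = 0.0628). None of the 7 passed with edgeR, where 2.59% of genes did. By unadjusted p under 0.05 these 3 would pass, as would 14.3% of genes, and DESeq2 called the same 3, with 4.14% of genes. For 1 µM none of the 7 passed this test with edgeR or DESeq2, nor at an unadjusted p under 0.05, where 0.0359%, 0.0853% and 3.44% of genes did. Between the doses at 3 h none of the 7 passed with edgeR, DESeq2 or at an unadjusted p under 0.05, against 0%, 0.0116% and 8.30% of all genes.

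**Figure D4:**
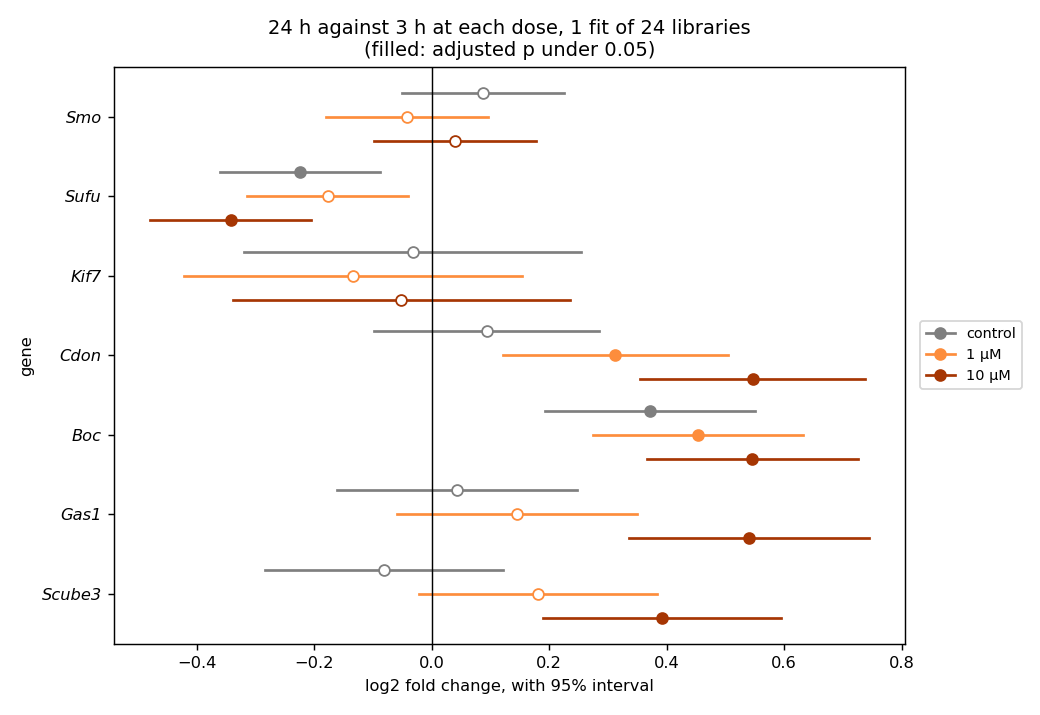
Log2 fold change from 3 to 24 h (x axis) of the 7 genes (y axis) in the control and with 1 and 10 µM BPDP, all from 1 fit of 24 libraries, with 95% intervals and filled points where the adjusted p was under 0.05. Boc is filled at every dose, Cdon at 1 and 10 µM, and Gas1 and Scube3 at 10 µM; Sufu is filled at 10 µM and in the control, although it did not pass in the fit of the 8 control libraries.

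The other listed hedgehog pathway genes show where the 7 stand. Of 71 tested with 10 µM at 24 h, 4 were higher and 5 lower, where 2.77% of all genes were higher and 3.44% lower. The lower genes were Gli1, Ptch1, Hhip, Ccnd1 and Bcl2, all on the list of hedgehog targets. Gli1 was at 106 ± 15.8 CPM in the control and 1.72 ± 1.20 CPM with 10 µM, and Ptch1 at 81.7 ± 12.9 and 22.4 ± 1.58 CPM (SD, n = 4). Ihh, the ligand of growing cartilage, was higher, at 36.9 ± 7.41 and 133 ± 17.2 CPM. The higher genes also held Foxf2, Mgrn1, which encodes a ubiquitin ligase that lowers Smo, and Neo1, a surface protein of the same superfamily as Cdon that can pair with it. Mgrn1 was higher by 0.38 (adjusted p = 0.00795) and Neo1 by 0.35 (adjusted p = 0.0323).

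Of the paralogs and partners of the 7 genes, Neo1 was called by edgeR among 7 tested, all 7 with a positive value, while DESeq2 called 2 (Neo1 and Cdh2) and 4 had an unadjusted p under 0.05. Over all genes, DESeq2 called 9.38% and 20.8% had an unadjusted p under 0.05. Scube1, a paralog of Scube3, differed by 0.01 and Scube2 by 0.34 (adjusted p = 0.566). Among 15 kinases and degradation factors of Gli proteins and 21 genes of ciliary transport and the transition zone, 0 were called by edgeR and 0 by DESeq2, and 2 and 0 had an unadjusted p under 0.05. Smo, Sufu and Kif7 did not pass either. Gli3, the main repressor of the family, differed by 0.42 (adjusted p = 0.0846 with edgeR, called by DESeq2) and Gli2 by -0.04.

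**Figure D5:**
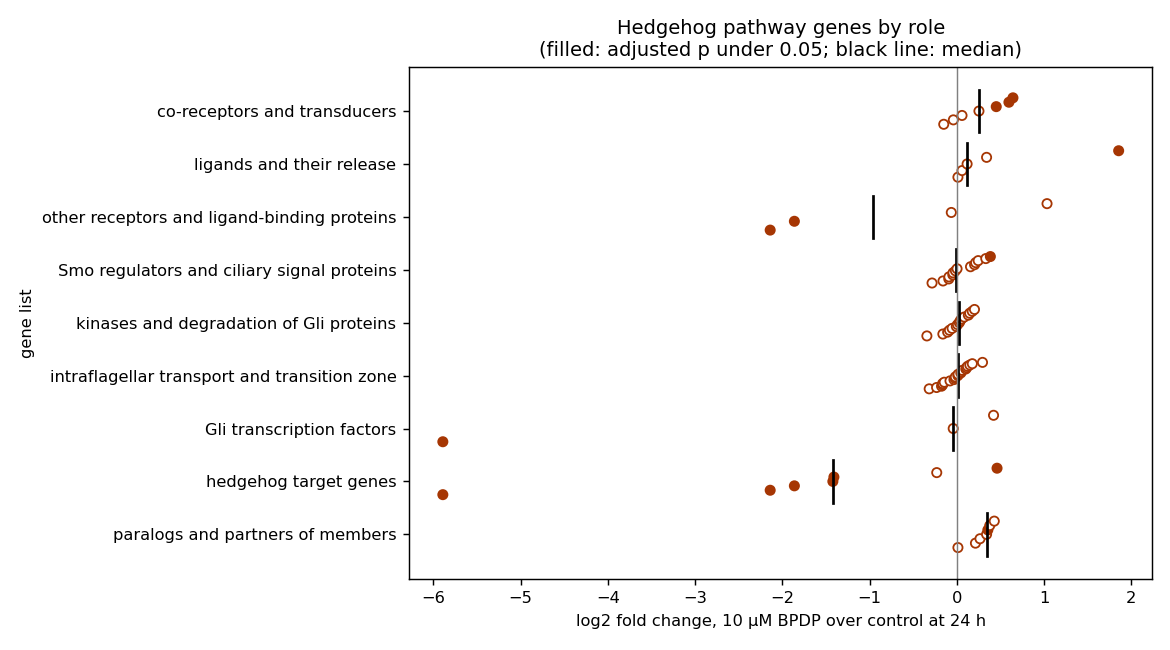
Log2 fold change of 10 µM BPDP over control at 24 h (x axis) for hedgehog pathway genes grouped by role (y axis), the 7 genes described here on the top line. Points are genes, filled where the adjusted p was under 0.05, black lines are medians, and some genes stand on more than 1 line; Cdon, Scube3 and Gas1 are the filled points of the top line, and Gli1 lies farthest to the left at -5.89.

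Markers of several cell types moved in the same comparison. With 10 µM at 24 h, 6 of 6 markers of cycling cells were lower than in the control, and their summed levels given above did not overlap. Macrophage markers were lower for 4 of 6 (summed 39.4 to 59.8 CPM against 105 to 160.2), endothelial markers for 4 of 6 (169.6 to 191 against 253 to 309), and epidermal markers for 2 of 6 (729.8 to 1034 against 1063 to 1873). Of the limb mesenchyme markers 1 of 7, Msx1, was lower (summed 933 to 1067 against 879.7 to 1024 CPM), and 0 of 8 cartilage markers were called by edgeR (summed 10549 to 14098 against 7598 to 11749 CPM), although 5 had an unadjusted p under 0.05 and DESeq2 called 2. Over all genes, 6.21% were called by edgeR (3.44% lower) and 9.38% by DESeq2, and 20.8% had an unadjusted p under 0.05. Summed levels of the muscle, perichondrium and osteoblast, erythroid and Schwann cell markers overlapped between 10 µM and control. No marker was at 0 in these groups. The part of these shifts in the values of Cdon, Gas1 and Scube3 was not tested.

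The genes whose log2 CPM ran most like each of the 7 over the 24 libraries were found among 11278 genes, as a description. For Cdon they were Clcn5 (r = 0.944), Gfpt1 and Plxna4, and for Boc they were Loxl3 (r = 0.951), Pou3f3 and Igf2r. Gas1 and Scube3 shared Megf6 (r = 0.904 and 0.853), next to Pcdhga12 and Ski for Gas1 and Lrp12 (r = 0.889) and Fnip1 for Scube3. Sufu ran with Nap1l4 (r = 0.924), Ccnf and Ercc6l, and Kif7 with Csf2ra (r = 0.925), Pigb and Usp19. Smo, with its narrow range, had no r above 0.730 (Hif1an, then Zdhhc3 and Plcl2). The points share libraries, groups and scaling.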

How the data were processed

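Poly-A RNA of cultured forelimb buds was sequenced in 24 libraries, grouped by the dose and time in the sample titles. Per the submitters' processing notes, the tools were STAR 2.5, HTSeq 0.6.1, CASAVA 1.8 and DESeq2 (its version written as 2), and the build was mm10. The authors deposited 5 pairwise tables, whose count columns hold raw reads per gene and library. Per the file headers and values, the deposited FPKM columns are these counts per gene length and library total. The deposited tables also hold the authors' log2 fold changes and their p-values. A further 10 columns of group means were not used. The tables were joined by gene identifier: 0 counts differed between tables, and 3556 genes missing from a table, which had no count where they were listed, were set to 0. Strand of counting is not given in the sources used here. Libraries of a group all differed by more than counting noise: the smallest chi-square between any pair was 4.91 per degree of freedom.

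Each dose against the control of its time, and 24 h against 3 h controls, were tested on 8 libraries with edgeR 4.0.16 (quasi-likelihood, robust, TMM scaling, filterByExpr with minimum count 10 and minimum total 15) in R 4.3.3. Other contrasts came from 1 fit of all 24 libraries (16691 genes), where leaving out a library removes it from that fit. A gene was called where its p, adjusted over all tested genes by Benjamini-Hochberg, was under 0.05, in words rose, fell, higher or lower. CPM are TMM-scaled, with a prior count of 2 for their log2. The edgeR test was checked on simulated data.

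All 7 genes were always named. Of other pathway lists, up to 4 called genes per list and comparison with the smallest adjusted p, or else the 2 most abundant, could be named. Gli1, Ptch1, Hhip and Ihh could be named throughout. Foxf2, Cdh2, Gli2, Gli3, Scube1, Scube2, Ift20 and Msx1 were named after their values were seen. Likeness is Pearson's r of log2 CPM over 24 libraries among genes of at least 5 mean CPM, without predicted genes, 3 per gene. A listed pathway item is not reported here and was left out of the lists. The 7 genes and all lists were chosen with earlier results of these data known. Adgre1 was not found among the macrophage markers' symbols.

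Replicate numbers were taken to pair libraries where the residuals of same-numbered libraries correlated above 0.1 in every pair. At 24 h this held in 4 of 4 pairs (0.128 to 0.287 for 1 µM, 0.139 to 0.308 for 10 µM), and at 3 h and for control over time in 3 of 4. The main tests held no term for replicate number, also at 24 h, where the numbers paired the libraries by this rule. Fits blocked by replicate number are therefore given beside them as alternatives. Alternatives were each library left out, the replicate number as a block, a term for replicates 1 and 2 against 3 and 4 (a split the labels do not name), each of these pairs alone, DESeq2 1.42.0, RLE and upper quartile scaling, no count filter, other sets of libraries in the fit, leaving out libraries near 0 for Xist and, chosen after seeing the data, leaving out libraries high in Yam1.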

Additional observations from a re-analysis of the deposited data

Results flagged for a closer look

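Within 42 groups of 4 libraries (7 genes, 6 groups), 3 had a library far from the other 3 by Dixon's rule at its 95% critical value, and chance alone marks about 1 group in 20. Sufu in 24 h control replicate 4 was at 93.0 CPM, while the other 3 controls were at 77.9 to 79.0 CPM. Sufu in replicate 2 of 1 µM at 24 h was at 77.5 CPM, below 84.4 to 85.6 CPM in the others. Boc in replicate 1 of 10 µM at 3 h was at 183 CPM, above 145 to 151 CPM in the others.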

How the results depend on the processing

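Over the comparisons and alternatives run, no called value among the 7 genes changed sign. The number of the 7 called, over fits without 1 library, was 2 to 3 for 10 µM against control at 24 h (3 with all libraries), 0 to 1 for control over time (1), 0 to 2 between doses at 24 h (1), 1 to 2 over time with 1 µM (2), 5 to 5 over time with 10 µM (5), and 0 to 2 for the 10 µM effect at 24 h against 3 h (0). It was 0 to 0 for both doses at 3 h, 1 µM at 24 h, the doses at 3 h and the 1 µM effect at 24 h against 3 h. In replicates 1 and 2 alone, 0 were called for 10 µM at 24 h, control over time, between doses at 24 h and over time with 1 µM, and 2 over time with 10 µM. In replicates 3 and 4 alone, 0 were called for control over time and between doses at 24 h. Within replicates 1 and 2, Cdon differed by 0.71, Gas1 by 0.42 and Scube3 by 0.39 for 10 µM at 24 h, and within replicates 3 and 4 by 0.59, 0.49 and 0.82, where Gas1 did not pass (adjusted p = 0.0739).

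Without the libraries near 0 for Xist, 0 were called for control over time and between doses at 24 h, and Gas1 no longer passed for 10 µM at 24 h (adjusted p = 0.0680). Without the libraries high in Yam1, 0 were called for control over time and 1 (Boc) over time with 1 µM. The fit of all 24 libraries called 1 (Cdon) for 1 µM at 24 h and 2 (Boc and Sufu) for control over time. DESeq2 called 2 (Gas1 and Scube3) between doses at 24 h and added Sufu over time with 1 µM. For the 10 µM effect at 24 h against 3 h, DESeq2 called 3, the term for replicates 1 and 2 against 3 and 4 called 2, and upper quartile scaling called 1. The cause of these changes was not tested. With the replicate block, 4 of the 7 were called for 10 µM at 24 h, 2 between doses at 24 h and 3 for the 10 µM effect at 24 h against 3 h, where the numbers were not shown to pair the 3 h libraries. The block changed no other call.

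Over all genes, 963 were called for 10 µM at 24 h (491 to 1242 without 1 library), 1645 with the block, 1497 by DESeq2, 1870 in the fit of 24 libraries and 6 in replicates 1 and 2 alone. For 10 µM at 3 h, 1 was called, against 335 with the block and 447 by DESeq2. For control over time, 1494 were called, and 791 to 1600 without 1 library. For 1 µM at 24 h, 12 were called, and 57 by DESeq2.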

Other observations

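Among 21 genes of ciliary transport and the transition zone, 8 fell and 1 rose (Ift20, by 0.44) between 3 and 24 h with 10 µM, where 14.1% of all genes fell. The 4 with the smallest adjusted p were Ift140 at -0.60 (adjusted p = 1.40e-05), Ift80 at -0.51, Rpgrip1l at -0.94 and Tctn2 at -0.60. In the control, from the separate fit of 8 libraries, 2 of the 21 fell over that time, B9d1 and Ift140, where 4.10% of all genes fell. Whether the change over time differed between control and 10 µM is the same test as that of the 10 µM effect at 24 h against 3 h. Over all 74 other pathway genes tested, it called 2 higher and 5 lower, against 0.983% and 1.61% of all genes. Its calls within this list of 21 are not given here, so the 2 counts of falls, from unlike fits, are a description. Kif27, a paralog of Kif7, fell by 1.14 on the log2 scale with 10 µM over that time (adjusted p = 0.00275).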
